A study of Mus musculus with 6 samples.

Results

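Nras, Rala and Rasl11b are genes of the Ras family of small GTPases, and their transcripts were compared between leukemic mice of the Gfi1-KD and Gfi1-KI genotypes. Gfi1 is a transcriptional repressor that acts in myeloid development. They are 3 of the 1512 genes named in a comparison table deposited by the study's authors. The genes were chosen by their symbols among the probe sets that the table retains, namely those whose RMA signal, a log2 summary over the probes of a probe set, differed with an unadjusted p under 0.05. These were 4.41% of the 45101 probe sets on the array, 1135 with a higher and 854 with a lower signal in Gfi1-KD. Each of the 3 genes is represented there by 1 probe set. Probe sets beyond that limit carry no gene name, so any others of these genes could not be followed. A gene's values below are those of its 1 listed probe set. The difference between the genotypes was therefore a condition of their choice, and every value of that difference below is a description without a test. The Gfi1-KD group held 3 mice and the Gfi1-KI group 3 mice. Both groups carried the Nup98/HoxD13 fusion under Vav-1 control, whose regulatory sequences act in blood cells, so neither is free of the leukemogenic transgene. As background knowledge, Gfi1-KI mice have the human GFI1 coding sequence at the mouse locus and Gfi1-KD mice a version of it with reduced expression; the labels state KI and KD only. Each mouse was adult and of like age, and gave 1 Affymetrix Mouse Genome array of RNA from whole marrow after red cells had been lysed. No row of the deposited table names Gfi1, so its own level was not analysed here.

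Small GTPases act as switches, on with GTP bound and off after they have hydrolysed it. Exchange factors load them with GTP, and GTPase activating proteins turn them off. NRAS passes signals of cytokine receptors on to the RAF, MEK and ERK kinases and to phosphoinositide 3-kinase, and activating mutations of the human gene are recurrent in myeloid malignancies. RALA is switched on downstream of Ras through exchange factors of the RALGDS type and acts in exocytosis through the exocyst complex. RASL11B is an atypical relative that lacks the prenylation signal by which classical Ras proteins are anchored to membranes. The deposited annotation gives all 3 proteins the small GTPase superfamily domain. This domain is given to 15 named genes of the table, of which 10 had a higher and 5 a lower mean RMA signal in Gfi1-KD. Nras and Rasl11b belong to the 5 and Rala to the 10. Over all 1512 named genes, 860 were higher (56.9%) and 648 lower (42.9%).

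Rasl11b had the largest difference of the 3 genes, with a mean signal in Gfi1-KD that was lower 2.49-fold in the RMA values and 3.66-fold in the MAS5 values. Nras was lower by a small and even amount, 1.21-fold in both. Rala was 1.21-fold higher in the RMA values, but its groups overlapped in the MAS5 values, where the mean difference had the opposite sign. RMA and MAS5 are 2 ways to summarise the probes of a probe set on the same arrays, so the second is no independent measurement.

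Gfi1 is a DNA-binding protein whose sites contain the letters AATC, and the 250 bases before the start of each gene are shown to place the genes and these letters. The sequences are those of RefSeq for GRCm38.p6, all 3 genes were matched, and each is written 5′ to 3′ on the gene's own strand. Capitals mark AATC, or GATT where the letters lie on the other strand. The windows are chr3:103058035-103058284 (plus strand) for Nras, chr13:17944218-17944467 (minus strand) for Rala and chr5:74195076-74195325 (plus strand) for Rasl11b.
Nras: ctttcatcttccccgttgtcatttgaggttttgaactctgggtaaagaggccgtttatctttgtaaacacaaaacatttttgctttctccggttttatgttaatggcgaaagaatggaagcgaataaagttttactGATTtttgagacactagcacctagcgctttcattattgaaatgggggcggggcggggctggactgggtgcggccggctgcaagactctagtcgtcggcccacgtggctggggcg
Rala: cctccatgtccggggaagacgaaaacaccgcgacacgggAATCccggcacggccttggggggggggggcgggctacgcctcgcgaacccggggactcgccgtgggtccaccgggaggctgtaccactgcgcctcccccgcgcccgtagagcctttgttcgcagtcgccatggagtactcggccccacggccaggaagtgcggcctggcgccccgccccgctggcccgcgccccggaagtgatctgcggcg
Rasl11b: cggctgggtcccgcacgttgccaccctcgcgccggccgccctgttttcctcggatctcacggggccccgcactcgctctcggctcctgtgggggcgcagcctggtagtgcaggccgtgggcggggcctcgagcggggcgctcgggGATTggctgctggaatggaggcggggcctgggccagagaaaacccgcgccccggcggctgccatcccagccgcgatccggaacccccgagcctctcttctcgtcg
Each window holds the letters 1 time, beginning 114 bases before the start in Nras, 211 in Rala and 105 in Rasl11b. Of 32851 promoter windows of this length, 69.0% hold them at least 1 time, with a median of 1. The members thus hold as many as the median window. Their base composition differed more. Rala has 32 CpG dinucleotides and 73.6% G or C, Rasl11b has 30 and 74.0%, and Nras has 14 and 48.4%. The median window has 6 CpG and 52.4% G or C. A match of letters is a description and no measured binding site.

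Nras lies on chromosome 3 from 103058285 to 103067914 on the plus strand (build 38). Its probe set, 1422688_a_at, was designed on a consensus sequence that aligns from 103058228 to 103066839, across the gene. All 11 probes match Nras transcripts, per the deposited annotation, which also notes 3 probes that match 1 other sequence and 5 that match a predicted transcript. The log2 RMA signal was 9.74, 9.93 and 9.85 on the Gfi1-KD arrays and 10.08, 10.11 and 10.14 on the Gfi1-KI arrays. All Gfi1-KD arrays were below all Gfi1-KI arrays, with a gap of 0.15 between the groups. The means were 9.84 ± 0.09 (SD, n = 3) in Gfi1-KD and 10.11 ± 0.03 (SD, n = 3) in Gfi1-KI, a log2 difference of -0.27 ± 0.06 (SE). The MAS5 signal, on a linear scale, was 1758, 1875 and 1886 in Gfi1-KD and 2053, 2319 and 2322 in Gfi1-KI. The groups did not overlap there either, and Gfi1-KI replicate 1 came closest to the Gfi1-KD arrays. The mean MAS5 signal was 1840 ± 70.7 (SD, n = 3) in Gfi1-KD and 2231 ± 154 (SD, n = 3) in Gfi1-KI. On the log2 scale the MAS5 difference was -0.28 ± 0.16 (SE of limma).

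By size, the RMA difference of Nras ranked 371 of 854 among the listed probe sets with a lower signal in Gfi1-KD. The pooled SD of its log2 RMA signal within a genotype was 0.07, and 33.8% of the listed probe sets had a smaller one. In the log2 MAS5 signal the pooled SD was 0.08, and 2.07% of the 22519 probe sets above the level filter had a smaller one. A difference as small as that of Nras is retained by p more readily where the spread is small. The rule of choice thus favours a low SD, and nothing is read from these shares. The level filter is a mean log2 MAS5 signal of 6.95, the median of all probe sets. In the authors' deposited table Nras had an unadjusted p of 0.00854 and a step-up adjusted p of 0.911. The last value was shared by the other members.

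Rala lies on chromosome 13 from 17880575 to 17944217 on the minus strand. Its probe set, 1456049_at, aligns to 639 bases from 17882149 to 17882787, near the 3′ end of the gene. It was assigned to Rala by the overlap of its target with the gene in the genome, while the other members were assigned by matching probes. The deposited annotation lists 0 transcripts with a count of matching probes for it, so its signal may not be that of the Rala mRNA. This kind of assignment holds for 129 of the listed probe sets (6.49%). The log2 RMA signal was 5.40, 5.29 and 5.34 on the Gfi1-KD arrays and 4.94, 5.08 and 5.18 on the Gfi1-KI arrays. All Gfi1-KD arrays were above all Gfi1-KI arrays, by a gap of 0.10. The means were 5.34 ± 0.06 (SD, n = 3) in Gfi1-KD and 5.07 ± 0.12 (SD, n = 3) in Gfi1-KI, a log2 difference of 0.28 ± 0.08 (SE).

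The MAS5 values of Rala did not separate the genotypes. They were 24.4, 21.8 and 20.7 in Gfi1-KD and 14.9, 23.0 and 59.6 in Gfi1-KI. The Gfi1-KD arrays fell between the lowest and the highest Gfi1-KI array, and Gfi1-KI replicate 3 was the highest of the 6. The log2 MAS5 difference was -0.30 ± 0.66 (SE of limma), and it was 0.27 without Gfi1-KI replicate 3. In the RMA values the difference without 1 array ran from 0.21 to 0.33. The probe set was dim. Its mean log2 MAS5 signal was 4.63, below the filter of 6.95, so it did not enter the count of tested probe sets. Of the listed probe sets below that filter, 756 of 952 (79.4%) had the same direction in MAS5 as in RMA values, against 1007 of 1034 (97.4%) above it. In the authors' deposited table the unadjusted p of Rala was 0.0255, the nearest of the members to the limit of 0.05, and rows beyond that limit are blank.

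Rasl11b lies on chromosome 5 from 74195326 to 74199477 on the plus strand. Its probe set, 1423854_a_at, aligns from 74195295 to 74199483, and 11 probes match the transcripts of the gene. The log2 RMA signal was 6.73, 7.03 and 6.93 on the Gfi1-KD arrays and 8.07, 7.75 and 8.82 on the Gfi1-KI arrays. The Gfi1-KD arrays lay within 0.30 of each other, and the Gfi1-KI arrays spread further, with replicate 3 the highest. The gap between the groups was 0.71. The means were 6.90 ± 0.15 (SD, n = 3) in Gfi1-KD and 8.21 ± 0.55 (SD, n = 3) in Gfi1-KI, a log2 difference of -1.31 ± 0.33 (SE). The MAS5 signal was 154, 150.0 and 207 in Gfi1-KD and 639, 375 and 977 in Gfi1-KI. The lowest Gfi1-KI array, replicate 2, thus stood above the highest Gfi1-KD array, replicate 3. Mean MAS5 signals were 170.4 ± 31.9 (SD, n = 3) in Gfi1-KD and 664 ± 302 (SD, n = 3) in Gfi1-KI, and the log2 difference was -1.87 ± 0.40 (SE of limma).

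By size, the RMA difference of Rasl11b ranked 22 of 854 among the listed probe sets with a lower signal in Gfi1-KD. Its arrays varied more within a genotype than those of most listed probe sets, with a pooled SD of 0.40 on the log2 RMA scale, larger than in 94.8% of them. On the log2 MAS5 scale the pooled SD was 0.52, larger than in 74.2% of the 22519 probe sets above the level filter. Gfi1-KI replicate 3 carried part of the difference, which was -1.01 in RMA values without it and -1.55 without Gfi1-KI replicate 2. In the authors' deposited table its unadjusted p was 0.0165.

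**Figure D1:**
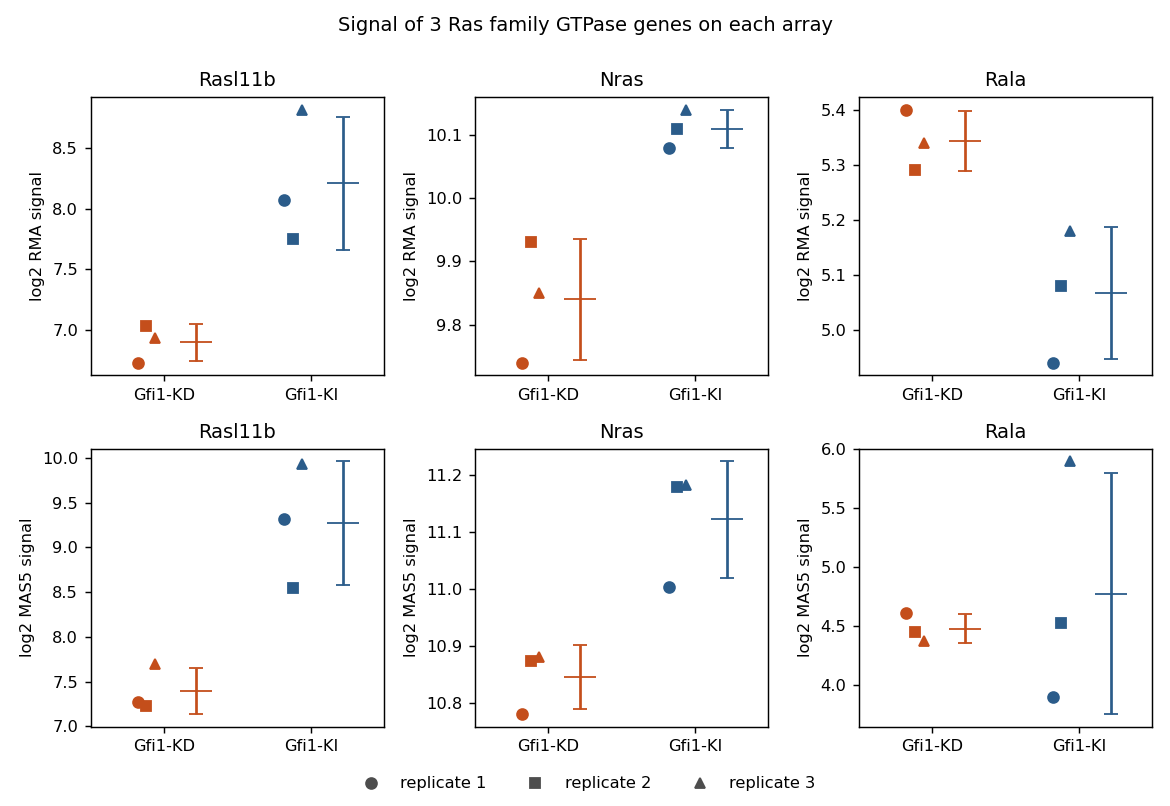
Log2 RMA signal (top row) and log2 MAS5 signal (bottom row) of Rasl11b, Nras and Rala on each array, Gfi1-KD left and Gfi1-KI right. Points are arrays, with the replicate given by the symbol, and bars are the mean ± SD (n = 3 each); vertical axes differ between panels and do not start at 0. Gfi1-KD lies below Gfi1-KI in all panels of Rasl11b and Nras, and for Rala the groups separate in the RMA but overlap in the MAS5 values.

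No probe set of the array passed the test between the genotypes. limma with Benjamini-Hochberg adjustment called 0 of 22519 probe sets (0%) at the threshold of 0.05. Before adjustment 1217 (5.40%) had a p under 0.05. The groups did not overlap in the MAS5 values of 2554 probe sets (11.3%). Nras and Rasl11b were among these 2554, which the rule of choice makes likely and from which nothing is read. In the RMA values 99.9% of the listed probe sets had groups that did not overlap, as all 3 members did.

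Without 1 array at a time, the MAS5 difference of Nras ran from -0.34 to -0.24 and that of Rasl11b from -2.23 to -1.54. That of Rala ran from -0.73 to 0.27, across 0. In the RMA values the ranges were -0.31 to -0.22 for Nras and -1.55 to -1.01 for Rasl11b. Gfi1-KI replicate 2 had the lowest median correlation of log2 signals with the other arrays, 0.906 against 0.919 to 0.933. Leaving that array out changed the direction of no member in either kind of value.

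**Figure D2:**
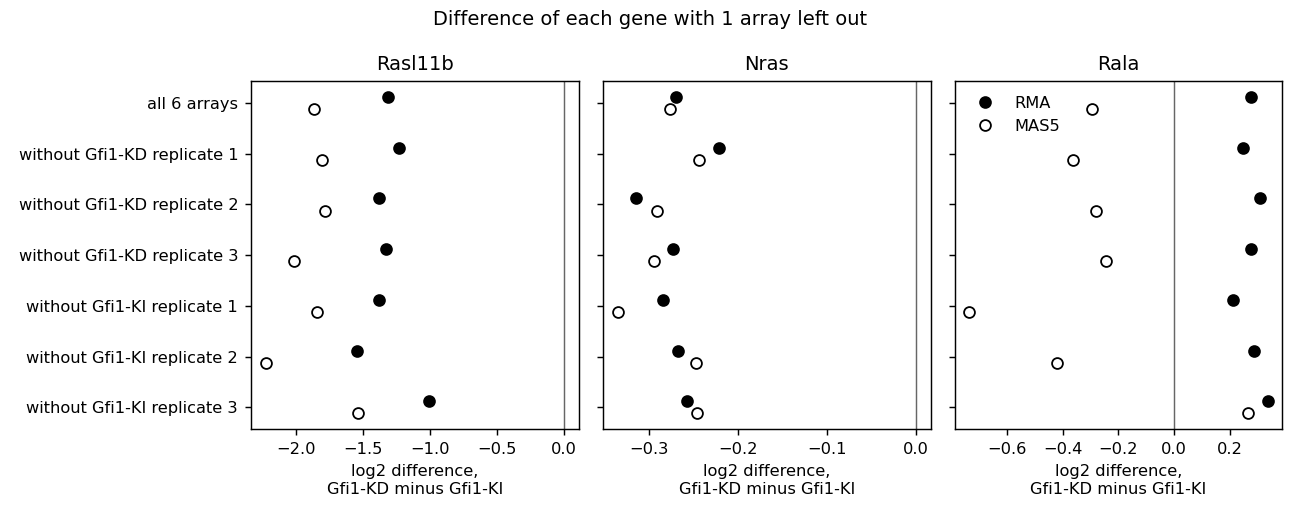
Log2 difference, Gfi1-KD minus Gfi1-KI, of Rasl11b, Nras and Rala with all 6 arrays (top) and with 1 array left out in turn. Filled points are RMA values and open points MAS5 values; horizontal axes differ between panels. For Rala the open point lies above 0 without Gfi1-KI replicate 3, at 0.27, and below 0 elsewhere.

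The other genes of the pathway could be followed only where the deposited table names them. Of 146 gene symbols in 7 lists, 13 (8.90%) were named, by 21 probe sets, of which 20 were above the level filter. The share of all probe sets on the array that are listed is 4.41%, counted by probe set and not by gene. In the RMA values 11 of the 13 genes had a higher mean in Gfi1-KD (84.6%) and 2 a lower one, beside 56.9% higher over all 1512 named genes. With the brightest probe set of each of the 13 genes, the median log2 difference was 0.57, against 0.14 over all listed probe sets. The latter are not chosen by brightness, and 952 of them were below the level filter. limma passed 0 of the 20 probe sets in either direction, with adjusted p from 0.865 to 0.956. In 12 of the 20 the groups did not overlap in the MAS5 values, beside 11.3% of all 22519 probe sets tested, from which nothing is read since the genes were listed by this contrast. As with the members, the table holds these genes because of their p in the same contrast, and the counts are no independent evidence of a direction.

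Among the other Ras subfamily GTPases, 2 of 31 were named. Rap2b, of the Rap branch, which acts in cell adhesion, had MAS5 signals of 2139 to 2349 in Gfi1-KD, against 949 to 1826 in Gfi1-KI. Its RMA signal was 1.51-fold higher in that probe set and 1.58-fold higher in another. Rras, which acts on integrin adhesion, had MAS5 signals of 1315 to 2852 in Gfi1-KD, against 751 to 1103 in Gfi1-KI. Its RMA signal was 1.81-fold higher.

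Of the regulators, 2 of 21 exchange factors and 2 of 19 GTPase activating proteins were named. Ralgapa1 encodes the catalytic alpha subunit of a complex that switches Ral proteins off. It was listed by 4 probe sets, and all 4 had a lower RMA signal in Gfi1-KD, by 1.12-fold to 1.35-fold. The brightest of them had MAS5 signals of 2032 to 2431 in Gfi1-KD, against 2490 to 3293 in Gfi1-KI, without overlap. The other 3 overlapped in the MAS5 values. Rasa3, which turns off Ras and Rap1, had MAS5 signals of 6062 to 8398 in Gfi1-KD, against 4256 to 5445 in Gfi1-KI, and a 1.49-fold higher RMA signal. Rapgef4, an exchange factor of Rap proteins that responds to cyclic AMP, had RMA signals 2.30-fold and 1.77-fold higher in its listed probe sets. Rapgef5, a further Rap exchange factor, was 1.56-fold higher in the RMA values and 2.44-fold higher in the MAS5 values. Its MAS5 signals were 246 to 335 in Gfi1-KD, against 91.8 to 177 in Gfi1-KI. Gfi1-KI replicates 2 and 3, at 94.6 and 91.8, lay under 124, the signal at the level filter.

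Effectors and cascade kinases were named for 2 of 32 symbols, among which Mllt4 and Afdn stand for the same gene. Rassf4, a protein with a Ras association domain, had MAS5 signals of 6662 to 8622 in Gfi1-KD, against 3140 to 4150 in Gfi1-KI. Its RMA signal was 1.89-fold higher there and 1.62-fold higher in its dimmer probe set. Akt2, a kinase downstream of phosphoinositide 3-kinase, had a log2 difference of -0.22 in the RMA values and 0.09 in the MAS5 values, so its direction was not settled. Ptpn6, a tyrosine phosphatase that restrains cytokine receptor signalling, was the 1 gene named of 12 upstream adaptors and phosphatases. Its MAS5 signals were 21637 to 22869 in Gfi1-KD, against 14311 to 17011 in Gfi1-KI, and its RMA signal was 1.31-fold higher.

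Feedback inhibitors and output genes of ERK signalling were named for 3 of 19 genes. Spred1, an inhibitor of Ras signalling to ERK, was 1.51-fold and 1.38-fold higher in the RMA signal of its listed probe sets, and its groups overlapped in the MAS5 values of both. Ccnd1, the gene of cyclin D1, was 1.48-fold and 1.43-fold higher in the RMA signal of its listed probe sets. In the MAS5 values its groups overlapped in the dimmer probe set (372 to 750 in Gfi1-KD, against 287 to 460 in Gfi1-KI). They did not overlap in the brighter one. The transcription factor gene Etv5 had a log2 difference of 0.20 in the RMA values and -0.12 in the MAS5 values. Zdhhc9, part of the enzyme that palmitoylates HRAS and NRAS, was the 1 gene named of 12 in lipid modification. It was 1.38-fold higher in the RMA signal and overlapped between the groups in the MAS5 values.

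**Figure D3:**
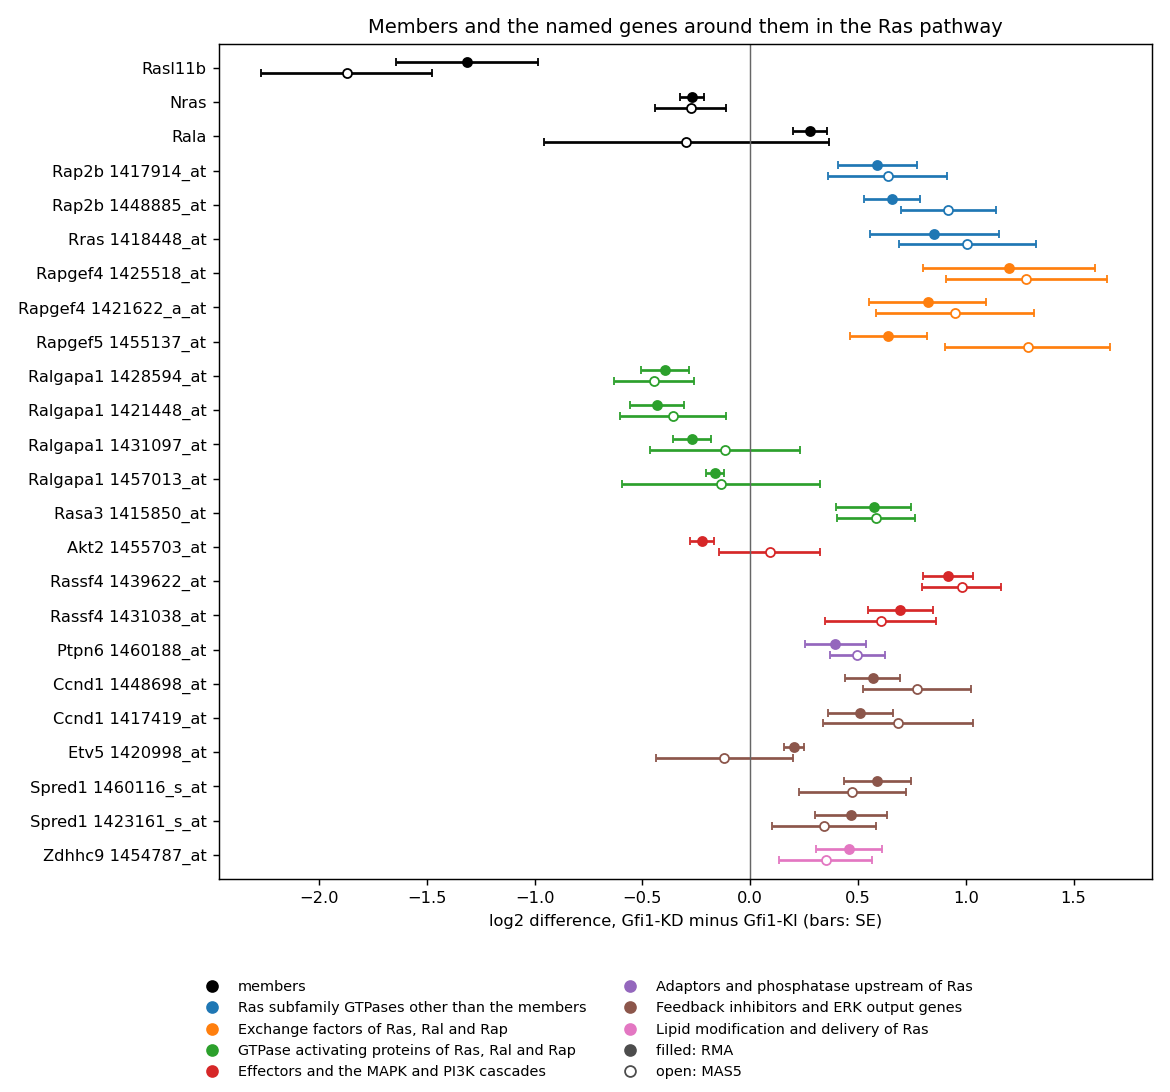
Log2 difference, Gfi1-KD minus Gfi1-KI, of the members (black) and of the 21 listed probe sets of pathway genes, coloured by list. Filled points are RMA values, open points MAS5 values, and bars are the SE. All genes shown were listed by their p on these arrays; Rasl11b lies furthest to the left, and Rala, Akt2 and Etv5 have points on both sides of 0.

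Among the listed genes, the RMA profiles closest to each member over the 6 arrays were found by the root mean square distance after each probe set was centred on its own mean. Closest to Rasl11b were Noct (0.19), the gene of the circadian protein nocturnin, Gca (0.19), which encodes the calcium-binding protein grancalcin, and Adpgk (0.19), an ADP-dependent glucokinase. All 3 were highest on Gfi1-KI replicate 3, as Rasl11b was, and had means 2.33-fold, 2.24-fold and 2.08-fold lower in Gfi1-KD. The median distance of listed probe sets to Rasl11b was 0.80. Closest to Nras were the olfactory receptor gene Olfr315, Txndc9 and the perilipin gene Plin5, at 0.03 each. Closest to Rala were Kctd13, Wdr33 and Emsy, at 0.04 each. For Nras and Rala the median distance was 0.24 and 0.23. The distance depends on the size of a profile. The root mean square of the member's own profile was 0.74 for Rasl11b, 0.15 for Nras and 0.16 for Rala. These genes share the arrays and the selection by p with the members.

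**Figure D4:**
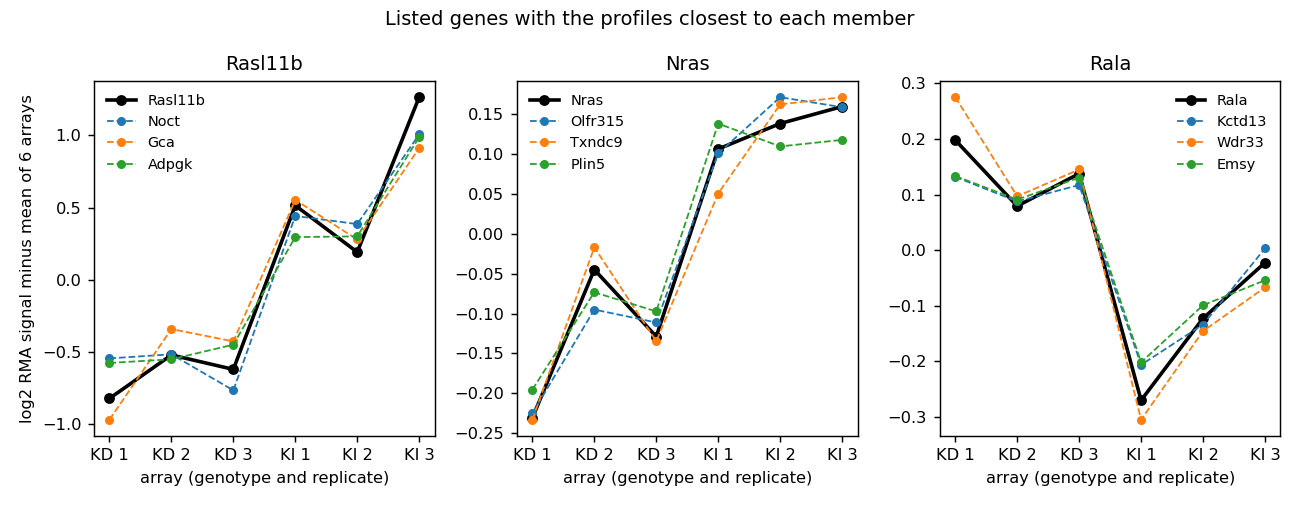
Log2 RMA signal minus its mean over the 6 arrays, for each member (solid black) and the 3 listed genes closest to it (dashed), by array, with Gfi1-KD left and Gfi1-KI right. Lines only join the values of a gene; vertical axes differ between panels. Rasl11b and its closest genes share a high value on Gfi1-KI replicate 3.

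Whole marrow holds many cell types, and fewer cells of a type and less RNA per cell cannot be told apart in it. Some markers of other cell types were listed in the same comparison. None of those above the level filter passed the test, and limma gave Ltf and each monocyte probe set an adjusted p of 0.865. Of 11 monocyte and macrophage markers 5 were named, all higher in Gfi1-KD, with a summed MAS5 signal of 55436 to 80403 in Gfi1-KD, against 26676 to 41956 in Gfi1-KI. Of 12 neutrophil and granule markers 1 was named, Ltf, with MAS5 signals of 28.9 to 2797 in Gfi1-KD, against 13788 to 26674 in Gfi1-KI. Of 7 T and NK cell markers 1 was named, Cd28 (703 to 1266 in Gfi1-KD, against 255 to 416 in Gfi1-KI), and of 7 endothelial and stromal ones Pecam1 (1541 to 2304 in Gfi1-KD, against 709 to 1134 in Gfi1-KI). Of 8 B cell markers 1 was named, Pax5, in a probe set below the level filter. Its groups overlapped in the MAS5 values (90.4 to 117 in Gfi1-KD, against 23.2 to 130 in Gfi1-KI). They did not overlap in the RMA values, with a log2 difference of 0.21. No named marker was at 0 on any array. The erythroid, megakaryocyte and progenitor lists had 0 named genes. The part of cell composition in the values of Rasl11b, Nras and Rala was not tested.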

How the data were processed

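RNA of whole bone marrow was measured on 6 arrays, 1 per mouse, grouped by the genotype in the labels; replicates were numbered in deposit order. The deposited value table holds 1 MAS5 intensity per probe set and array, per the submitters' processing notes, scaled to a mean of 1000.01 without the outer 2% at each end. A table deposited by the authors holds log2 RMA signals, per the file headers. Per the file headers it also gives, for kd against wt, a p-value, a step-up p-value, a ratio and a signed fold score. Its wt group was read as Gfi1-KI. The software and version are not given in the sources used here.

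Signals under 1 were set to 1 and log2 was taken. limma 3.58.1 in R 4.3.3 (lmFit, eBayes with trend, two-sided, Benjamini-Hochberg, threshold 0.05) was run on non-control probe sets at or above the median level. It was also run on simulated data with known changes, from which nothing is read about the members. The calls and adjusted p came from the fit to the 6 arrays. The SE of limma, with variance shared between probe sets, came from a fit without the level filter, over 45037 probe sets. With 3 arrays against 3, an exact permutation test cannot go below 0.1. RMA differences have the SE of the 6 values, without shared variance. Symbols were updated through Entrez identifiers, and gene coordinates are those of RefSeq for GRCm38.p6. Named genes were the members, each pathway gene that the deposited table lists (an item of the lists is not reported here), and the 3 closest profiles per member. Members and lists were chosen with earlier results of these data known. Python 3.11.15 with pandas 2.3.3, numpy 2.4.6 and matplotlib 3.10.9 made the summaries. Alternatives were the level filter, quantile normalization, median centring, added constants of 16 and 64, eBayes without trend, RMA in place of MAS5, and each array left out.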

Additional observations from a re-analysis of the deposited data

How the results depend on the processing

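The count of probe sets called stayed at 0 under all 13 alternatives, with 536 to 2311 at an unadjusted p under 0.05 and a smallest limma adjusted p from 0.144 to 0.9997. The MAS5 log2 difference of Rala, -0.30, was 0.28 in the RMA signals and ran from -0.73 to 0.27 with 1 array left out; the positive value was without Gfi1-KI replicate 3. That of Rasl11b, -1.87, was -1.31 in the RMA signals, and that of Rapgef5, 1.29, was 0.64. Nras kept its direction under each alternative, as did Rasl11b. Nras moved by less than the spread between arrays in each of them, and Rasl11b in all but the RMA signals. Among pathway genes, the dimmest Ralgapa1 probe set ran from -0.45 to 0.14 with 1 array left out. Akt2 was -0.22 and Etv5 0.20 in the RMA signals, both opposite to MAS5. The other pathway values kept their direction, 228 of 231 in all. The causes were not tested. Over all non-control probe sets, the median log2 MAS5 difference, Gfi1-KD minus Gfi1-KI, was 0.025 in the main setting. It ran from -0.004 to 0.021 with the other scalings and added constants. No paired analysis was possible because the labels give no replicate numbers shared between the groups. The 3 arrays per group limit the precision of every value, and the values of Rala are limited further by a dim signal and by an assignment that rests on genome overlap alone.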
